A study of Mus musculus with 12 samples.

Results

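The TREM receptors, their adaptors and the first signalling enzymes behind them are described here as 7 genes in cortical microglia, namely the receptors *Trem2*, *Trem1* and *Treml2*, the adaptors *Tyrobp* and *Hcst*, the kinase *Syk* and the phospholipase *Plcg2*. The genes were chosen by name from the 55487 genes of the count table, by a rule that uses no measured level, and all 7 were among the 15425 genes that passed the filter on low counts. The libraries came from male mice, with 3 mice in each of 4 groups. WT mice and AppNL-G-F mice, whose own *App* gene carries a humanized Aβ sequence with the Swedish, Iberian and Arctic mutations of familial AD, were given PBS (veh) or 10 mg/kg of rh Bri2 BRICHOS R221E, a recombinant form of the chaperone domain of Bri2. The injections were intravenous, began at 9 months of age, were given 2 times a week for 12 weeks (24 in all), and were followed by 4 weeks without treatment in every group, veh groups included. CD11b, the surface protein by which the cells were captured on magnetic beads, is shared by microglia and other myeloid cells, so the libraries are bulk RNA of a captured population and fewer cells of a type cannot be told apart from less RNA per cell.

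TREM2 is a surface receptor of microglia that binds lipids, lipoproteins and amyloid. It has no signalling tail of its own and depends on the adaptor DAP12, the product of *Tyrobp*, whose phosphorylated ITAM motif recruits the kinase SYK, while DAP10, the product of *Hcst*, recruits PI3 kinase. SYK activates phospholipase C gamma 2, the product of *Plcg2*, and with it calcium and NF-kappaB signalling, and variants of human *TREM2* and *PLCG2* change the risk of AD. TREM1 uses the same adaptor in neutrophils and monocytes, and TREML2 belongs to the same receptor family.

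Each library held 12433402 to 17889654 counts, and 3 counts, the floor of detection used here, correspond to 0.168 to 0.241 CPM (the count scaled by the library size with TMM factors). The lowest count of any of the 7 genes was 31, for *Trem1*. The 8 microglia markers (*Cx3cr1*, *P2ry12* and others) summed to 26560 to 29190 CPM in veh-treated WT mice and to 23150 to 24690 CPM in veh-treated AppNL-G-F mice, and 0 of them was at 0 in any group. Of these 8, 7 passed the test as lower and 1 as higher in the latter, with a median log2 fold change of -0.50, and between the treated strains, whose sums overlapped (25200 to 26490 CPM in WT and 24200 to 25680 CPM in AppNL-G-F mice), 6 were lower and 1 higher, with a median of -0.27. Other cells were present as well. The 5 oligodendrocyte markers had the highest median sum after microglia in each group, with 9337 to 16470 CPM in veh-treated WT and 2908 to 5289 CPM in veh-treated AppNL-G-F mice, and 2 of them were called lower in the latter, as were 3 of 5 neuron and 3 of 4 endothelial markers. Between the treated strains 0 of 5 oligodendrocyte, 4 of 5 neuron and 3 of 4 endothelial markers were lower. The part of these cells in the lower lists was not tested. The summed level of 6 astrocyte markers was 385 to 563 CPM in veh-treated WT mice and 1072 to 3630 CPM in veh-treated AppNL-G-F mice, and all 6 markers were higher in the latter. The summed level of 8 neutrophil markers was 35.5 to 441 CPM in veh-treated WT mice and 13.9 to 37.1 CPM in veh-treated AppNL-G-F mice. The 6 border macrophage markers (*Mrc1*, *Cd163* and others) summed to 390 to 460 CPM and 167 to 224 CPM in the same groups, and all 6 were lower in the latter. These counts stand beside 20.1% of all tested genes that were higher and 16.9% that were lower between the veh-treated strains. Between the treated strains these shares were 20.8% and 21.8%.

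In veh-treated AppNL-G-F mice, *Trem2*, *Treml2*, *Tyrobp* and *Hcst* rose to between 2.64 and 3.43 times their level in veh-treated WT mice, whereas *Syk* and *Plcg2* fell. *Trem1*, the other receptor, did not pass the test. In all, 6 of the 7 genes passed edgeR's quasi-likelihood test at an adjusted p under 0.05, beside 37.0% of all tested genes. The 4 that rose stand beside 20.1% of all genes that were higher, and the 2 that fell beside 16.9% that were lower.

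**Figure D1:**
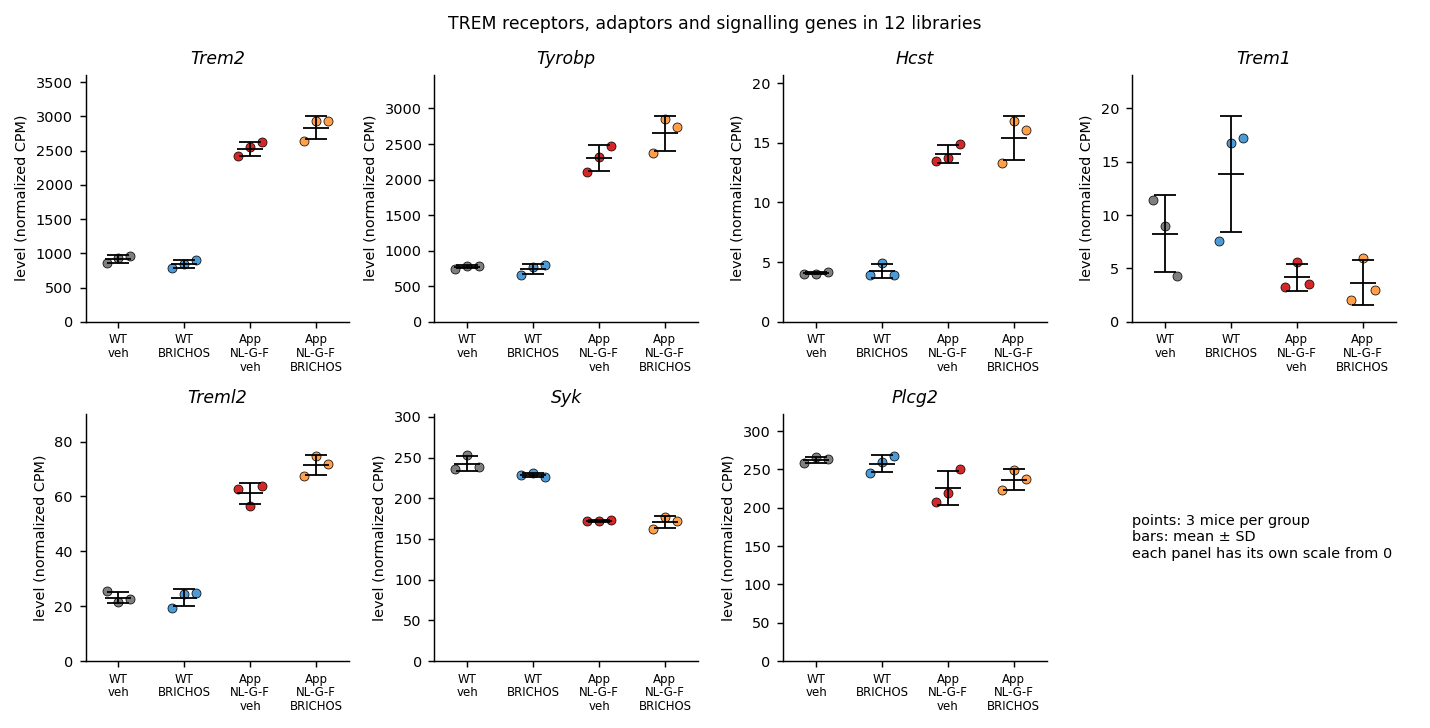
Normalized CPM of the 7 genes in each of the 12 libraries, by group, with the mean and SD of 3 mice and an axis from 0 in every panel. *Trem2*, *Tyrobp*, *Hcst* and *Treml2* lie higher in every AppNL-G-F library than in any WT library, *Syk* lies lower in every AppNL-G-F library, and *Trem1* spreads widely among the WT libraries.

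*Trem2*, on chromosome 17 of GRCm38 (chr17:48346401-48354147, plus strand), was at 852, 935 and 964 CPM in the veh-treated WT mice and at 2417, 2552 and 2619 CPM in the veh-treated AppNL-G-F mice. The groups were far apart, and the spread within each was small. The level was 2.76-fold higher in AppNL-G-F mice (log2 fold change 1.46 ± 0.0773, SE, n = 3 and 3, adjusted p = 8.3e-08 in edgeR's quasi-likelihood test). *Treml2*, from the same gene cluster (chr17:48299498-48312533, plus strand), was at 25.5, 21.4 and 22.5 CPM in veh-treated WT mice and at 62.7, 56.6 and 63.9 CPM in veh-treated AppNL-G-F mice. It was 2.64-fold higher there (log2 fold change 1.40 ± 0.102, adjusted p = 1.05e-06). Again the groups did not overlap, as was the case for 50.9% of all tested genes.

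The adaptor *Tyrobp* (chr7:30413760-30417585, plus strand) was at 745, 783 and 784 CPM in veh-treated WT mice and at 2106, 2313 and 2471 CPM in veh-treated AppNL-G-F mice. Its rise was 2.98-fold (log2 fold change 1.57 ± 0.0943, adjusted p = 2.12e-07). *Hcst*, the gene of the other adaptor, was at 4.04, 4.03 and 4.17 CPM in veh-treated WT mice and at 13.5, 13.7 and 14.9 CPM in veh-treated AppNL-G-F mice. These levels rest on 56 to 68 counts per WT library and 201 to 209 counts per AppNL-G-F library. The rise was 3.43-fold (log2 fold change 1.78 ± 0.133, adjusted p = 1.32e-06), and neither adaptor overlapped between the strains.

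*Hcst* (chr7:30417712-30419854) lies on the minus strand, tail to tail with *Tyrobp*, and 126 bases separate the genes. Its counts were 0.488% to 0.639% of those of *Tyrobp* over the 12 libraries. The libraries were made with a strand-preserving kit, but the strand setting of the counting is not given in the sources used here. The part that reads running past the end of *Tyrobp* could have in the *Hcst* counts was not tested, and the *Hcst* values carry this limit.

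The kinase *Syk* (chr13:52583173-52648792, plus strand) was at 236, 253 and 238 CPM in veh-treated WT mice and at 172, 172 and 173 CPM in veh-treated AppNL-G-F mice. The AppNL-G-F libraries were almost equal to each other and lay under all WT libraries. *Syk* was 1.41-fold lower (log2 fold change -0.49 ± 0.0457, adjusted p = 7.42e-06). The median of the microglia markers was lower by a like amount (-0.50), and their part in the falls of *Syk* and *Plcg2* was not tested. *Plcg2* (chr8:117498291-117635142, plus strand) was at 259, 266 and 264 CPM in veh-treated WT mice and at 208, 220 and 250 CPM in veh-treated AppNL-G-F mice. The groups did not overlap, but the highest AppNL-G-F mouse came close to the WT mice. The difference was 1.16-fold (log2 fold change -0.22 ± 0.0687, adjusted p = 0.0273).

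The call of *Plcg2* did not hold in most alternatives that dropped a library. Without veh-treated WT mouse 1, 2 or 3, the adjusted p of edgeR's quasi-likelihood test was 0.0502, 0.0759 or 0.0657, and without veh-treated AppNL-G-F mouse 1 or 2 it was 0.15 or 0.0917, while without mouse 3 of that group it was 0.00341. With the astrocyte marker score as a covariate the log2 fold change of *Plcg2* was -0.05 (adjusted p = 0.806). The astrocyte marker sums did not overlap between these strains, so that fit cannot separate the score from the strain. In it 1326 of all 15425 genes were higher and 898 lower, against 3099 and 2611 without the covariate. The fall of *Syk* was -0.43 with that covariate (adjusted p = 0.0043), and *Trem2*, *Tyrobp*, *Hcst* and *Treml2* were higher by 1.53, 1.70, 1.97 and 1.38 on the log2 scale.

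*Trem1* (chr17:48232768-48246924, plus strand) was at 11.4, 9.01 and 4.32 CPM in veh-treated WT mice and at 3.24, 5.64 and 3.56 CPM in veh-treated AppNL-G-F mice. The groups overlapped, since the third WT mouse lay within the AppNL-G-F range. The log2 fold change was -0.99 with a 95% confidence interval of -2.01 to 0.02 (adjusted p = 0.114 in edgeR's quasi-likelihood test). *Trem1* passed the threshold when veh-treated WT mouse 3 was left out (log2 fold change -1.30, adjusted p = 0.05, just under the threshold before rounding), in DESeq2's Wald test with only the compared groups (-0.99, adjusted p = 0.0233) and with library totals in place of TMM factors (-1.19, adjusted p = 0.0495).

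In the WT mice the level of *Trem1* moved with markers of neutrophils and monocytes. The neutrophil markers summed to 441, 354 and 35.5 CPM in veh-treated WT mice 1, 2 and 3 and to 69.5, 256 and 410 CPM in mice 1, 2 and 3 of the treated WT group. In the AppNL-G-F libraries the sum was 12.8 to 37.1 CPM. It was in the same order as *Trem1* over the 3 veh-treated mice (13.9, 37.1 and 27.1 CPM in mice 1, 2 and 3), but not over the 3 treated mice, of which mouse 1 had the lowest *Trem1* and the highest sum. The WT library of each treatment with the fewest neutrophil transcripts was also the one with the lowest *Trem1*. The 8 neutrophil markers were detected in every group. All 8 passed the test as lower in veh-treated AppNL-G-F than WT mice, beside 16.9% of all tested genes. In the treated mice 5 of 8 did so, beside 21.8%. The 5 monocyte markers summed to 48.6, 42.5 and 18.1 CPM in veh-treated and to 32.5, 61.2 and 86.6 CPM in treated WT mice, and to 10.1 to 25.0 CPM in the AppNL-G-F libraries. Of these 5, 2 passed the test as lower in veh-treated and 4 in treated AppNL-G-F mice, beside the same shares of all genes. The part of either cell type in the *Trem1* difference was not tested.

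**Figure D2:**
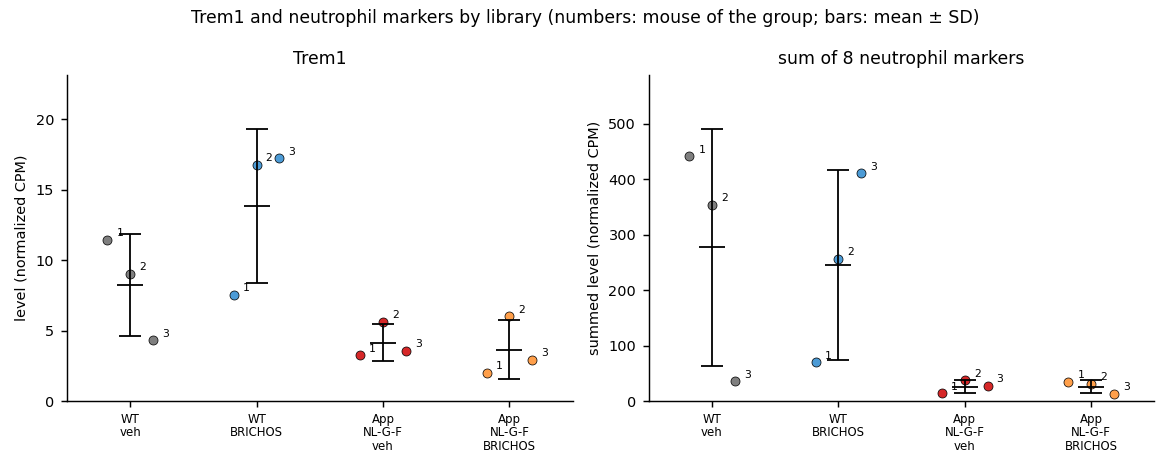
Normalized CPM of *Trem1* (left) and the summed CPM of 8 neutrophil markers (right) in each library by group, with the mouse number beside each point and the mean and SD of 3 mice. Veh-treated WT mouse 3 and treated WT mouse 1 are the lowest of their groups in both panels, and the AppNL-G-F libraries do not exceed 6.01 CPM for *Trem1* or 37.1 CPM for the markers.

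The strain difference was also measured among the mice given rh Bri2 BRICHOS R221E, which share no library with the veh-treated ones. There, *Trem2*, *Treml2*, *Tyrobp* and *Hcst* again rose, and *Syk* and *Trem1* fell. In this comparison 6 of the 7 genes passed the test, beside 42.5% of all tested genes. The 4 that rose stand beside 20.8% of all genes that were higher, and the 2 that fell beside 21.8% that were lower. *Trem2* was at 779, 848 and 902 CPM in treated WT mice and at 2636, 2934 and 2939 CPM in treated AppNL-G-F mice. It was 3.36-fold higher in the latter (log2 fold change 1.75 ± 0.0779, adjusted p = 2e-08 in edgeR's quasi-likelihood test). *Tyrobp* was at 657, 766 and 797 CPM and at 2369, 2845 and 2733 CPM, a 3.58-fold difference (log2 fold change 1.84 ± 0.0951, adjusted p = 5.75e-08). Neither gene overlapped between the treated strains.

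*Treml2* was at 19.4, 24.6 and 25.0 CPM in treated WT mice and at 67.6, 74.8 and 72.0 CPM in treated AppNL-G-F mice, 3.11-fold higher (log2 fold change 1.63 ± 0.102, adjusted p = 2.67e-07). *Hcst* was at 3.91, 4.90 and 3.89 CPM and at 13.3, 16.8 and 16.1 CPM, 3.63-fold higher (log2 fold change 1.86 ± 0.131, adjusted p = 7.65e-07). *Syk*, in contrast, was at 229, 231 and 226 CPM in treated WT mice and at 162, 177 and 173 CPM in treated AppNL-G-F mice, 1.34-fold lower (log2 fold change -0.42 ± 0.0457, adjusted p = 2.41e-05). All of these groups were apart, which held for 51.7% of all tested genes.

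*Trem1* was at 7.56, 16.8 and 17.2 CPM in treated WT mice and at 2.0, 6.01 and 2.95 CPM in treated AppNL-G-F mice, and the groups did not overlap. Here it was 3.77-fold lower (log2 fold change -1.92 ± 0.464, adjusted p = 0.00616), with the neutrophil and monocyte markers described above lower as well. *Plcg2* was at 246, 260 and 267 CPM in treated WT mice and at 223, 250 and 237 CPM in treated AppNL-G-F mice. These groups overlapped, and the log2 fold change of -0.12 (95% confidence interval -0.27 to 0.03) did not pass the test (adjusted p = 0.177).

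**Figure D3:**
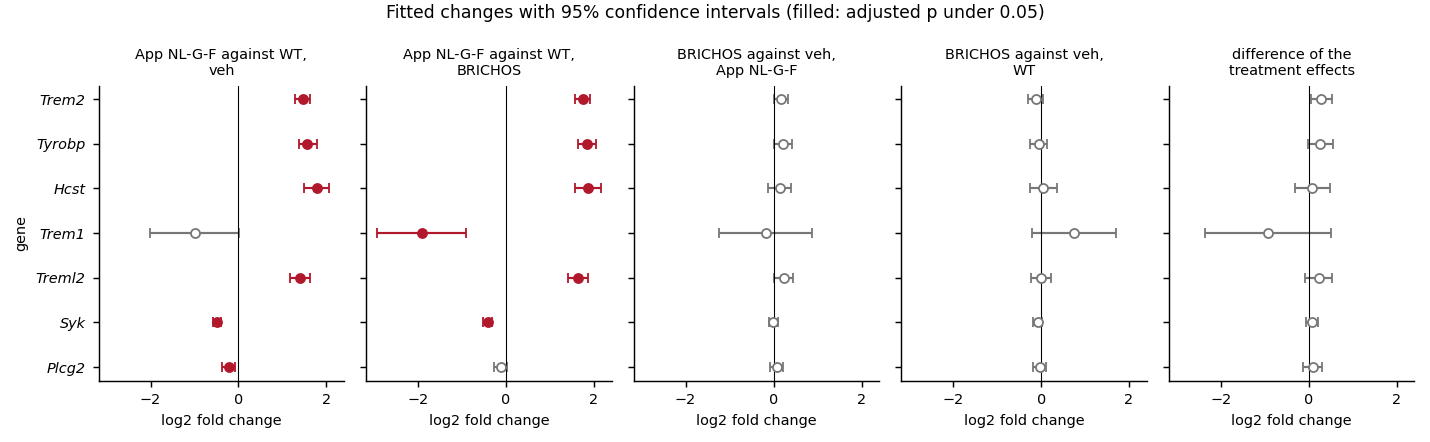
Log2 fold change of the 7 genes with its 95% confidence interval in 5 comparisons, from edgeR's quasi-likelihood fit of all 12 libraries, with filled points for an adjusted p under 0.05. *Trem2*, *Tyrobp*, *Hcst* and *Treml2* are higher by 1.40 to 1.86 in both strain comparisons, *Syk* is lower in both, and no point is filled for the treatment or for the difference of its effects.

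Whether rh Bri2 BRICHOS R221E altered these genes within a strain was examined next. In AppNL-G-F mice, *Trem2*, *Tyrobp* and *Treml2* had higher means after treatment, by 12%, 15% and 17%, but none of the 7 genes passed the test. By edgeR's quasi-likelihood test 0 of the 7 were called at an adjusted p under 0.05, beside 0.00648% of all tested genes. At an unadjusted p under 0.05, 2 of the 7 were found (*Tyrobp* and *Treml2*), beside 10.8% of all genes. DESeq2's Wald test called 0 of the 7, and 5 of 13900 genes as higher and 120 as lower.

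For *Trem2*, the AppNL-G-F libraries ranged from 2417 to 2619 CPM after veh and from 2636 to 2939 CPM after rh Bri2 BRICHOS R221E, so the groups were adjacent without overlap. The log2 fold change was 0.17 ± 0.0757 (adjusted p = 0.463 in edgeR's quasi-likelihood test). For *Treml2*, the ranges were 56.6 to 63.9 CPM and 67.6 to 74.8 CPM, again without overlap (log2 fold change 0.23, 95% confidence interval 0.01 to 0.44, adjusted p = 0.428). Groups without overlap and with higher values after treatment were found for 6.37% of all tested genes. For *Tyrobp*, the ranges of 2106 to 2471 CPM and 2369 to 2845 CPM overlapped (log2 fold change 0.21, adjusted p = 0.447).

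The log2 fold changes of the remaining genes in AppNL-G-F mice were 0.14 (95% confidence interval -0.13 to 0.40) for *Hcst*, -0.01 (-0.11 to 0.09) for *Syk* and 0.07 (-0.08 to 0.22) for *Plcg2*. *Trem1* had a log2 fold change of -0.18 with an interval of -1.24 to 0.88, by far the widest of the 7 genes. The astrocyte markers summed to 519 to 1481 CPM in treated AppNL-G-F mice, under the 1072 to 3630 CPM of the veh group apart from an overlap at its lower end. With the astrocyte score as a covariate, the log2 fold changes of *Trem2*, *Tyrobp* and *Treml2* were 0.12, 0.13 and 0.24, each with an adjusted p of 1.

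In WT mice, 0 of the 7 genes were called by edgeR's quasi-likelihood test, beside 0% of all tested genes. At an unadjusted p under 0.05, again 0 of the 7 were found, beside 11.4% of all genes. DESeq2's Wald test called 0 of the 7, and 68 of 15597 genes as higher and 17 as lower. *Trem2* was at 852 to 964 CPM after veh and 779 to 902 CPM after treatment (log2 fold change -0.12, 95% confidence interval -0.29 to 0.04). *Syk* was at 236 to 253 CPM after veh and 226 to 231 CPM after treatment, without overlap (log2 fold change -0.08, adjusted p = 0.518), as were 9.19% of all tested genes that were lower. The log2 fold change of *Trem1* was 0.74 with an interval of -0.21 to 1.70, and those of *Tyrobp*, *Hcst*, *Treml2* and *Plcg2* lay between -0.06 and 0.05.

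The effect of treatment was then compared between the strains as a contrast of the same fit. For *Trem2* it was higher in AppNL-G-F than in WT mice by 0.29 ± 0.107 on the log2 scale, with a 95% confidence interval of 0.05 to 0.52 (adjusted p = 0.255 in edgeR's quasi-likelihood test). The difference was 0.26 ± 0.13 for *Tyrobp* and 0.23 ± 0.142 for *Treml2* (adjusted p = 0.369 and 0.471). None of the 7 genes passed the adjusted threshold, beside 0.00648% of all genes, 1 of them (*Trem2*) had an unadjusted p under 0.05, beside 14.8% of all genes. DESeq2's Wald test called 0 of the 7, and 27 of 16162 genes as higher and 213 as lower.

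To set the levels of different genes side by side, the CPM was divided by the length in kilobases of the principal transcript. In veh-treated WT mice the order was *Tyrobp* (1367 ± 39.5 CPM per kb, SD, n = 3), *Trem2* (843 ± 53.6), *Plcg2* (61.1 ± 0.895), *Syk* (45.2 ± 1.75), *Treml2* (11.1 ± 1.0), *Hcst* (9.24 ± 0.179) and *Trem1* (2.76 ± 1.21), and no neighbours overlapped. In veh-treated AppNL-G-F mice *Tyrobp* (4072 ± 325 CPM per kb) and *Trem2* (2325 ± 94.7) led again and *Plcg2* (52.6 ± 5.08) followed. The range of *Hcst* (31.7 ± 1.72) overlapped there with those of its neighbours *Syk* (32.1 ± 0.159) and *Treml2* (29.2 ± 1.86), whose own ranges did not overlap. The order depends in part on the length chosen, because *Trem2* has a principal transcript of 1088 bases and 4946 bases of annotated exons. With all annotated exons, *Trem2* was at 185 and *Tyrobp* at 1156 CPM per kb in veh-treated WT mice, and *Treml2* (4.70) stood below *Hcst* (5.65).

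Receptor and adaptor were also compared within each library, where the scaling between libraries cancels. The ratio of *Trem2* to *Tyrobp* counts was 1.14, 1.19 and 1.23 in veh-treated WT mice and 1.15, 1.10 and 1.06 in veh-treated AppNL-G-F mice. After treatment it was 1.19, 1.11 and 1.13 in WT mice and 1.11, 1.03 and 1.08 in AppNL-G-F mice. The strains overlapped in both treatments, although the AppNL-G-F means were lower. Over both treatments the ratio was 0.934 of that in WT mice (log2 difference -0.098, exact two-sided permutation test within treatments, p = 0.02, with 0.005 as the smallest p that the 400 permutations can give). When equally numbered mice of both strains were swapped as pairs, the exact p was 0.0625. The ratio of *Syk* to *Tyrobp* counts was 0.314 ± 0.01 (SD, n = 3) in veh-treated WT mice and 0.0753 ± 0.00587 in veh-treated AppNL-G-F mice, which restates the rise of the one and the fall of the other as a single description.

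Between the veh-treated strains *Trem2* and *Hcst* rose and *Syk* and *Plcg2* fell. The call of *Plcg2* was lost in most fits that dropped a veh-treated library. Windows around the starts of these genes are shown so that the sequences behind both directions can be compared. They are RefSeq windows on GRCm38.p6, from 250 bases before to 50 bases after a start, written 5′ to 3′ on the strand of the gene, and 5 of the 7 genes had one. *Trem2* is chr17:48346151-48346450 (plus strand), *Hcst* is chr7:30419805-30420104 (minus strand), *Syk* is the first of its start windows, chr13:52583187-52583486 (plus strand), and *Plcg2* is chr8:117498025-117498324 (plus strand). Capitals mark matches to the ETS core GGAAGT, the motif family of the myeloid factor PU.1, or to the E-box CACGTG, searched on both strands.
Trem2: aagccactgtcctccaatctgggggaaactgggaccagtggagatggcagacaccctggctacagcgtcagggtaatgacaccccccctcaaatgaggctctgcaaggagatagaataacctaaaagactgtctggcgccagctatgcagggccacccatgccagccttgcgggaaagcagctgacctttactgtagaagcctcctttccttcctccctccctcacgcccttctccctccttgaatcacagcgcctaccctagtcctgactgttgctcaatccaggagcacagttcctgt
Hcst: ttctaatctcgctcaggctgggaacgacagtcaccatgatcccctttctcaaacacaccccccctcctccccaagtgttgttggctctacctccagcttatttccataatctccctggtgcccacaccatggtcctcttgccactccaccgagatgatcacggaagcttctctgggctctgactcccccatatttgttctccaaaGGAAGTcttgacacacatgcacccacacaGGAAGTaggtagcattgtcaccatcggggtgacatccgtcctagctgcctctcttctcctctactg
Syk: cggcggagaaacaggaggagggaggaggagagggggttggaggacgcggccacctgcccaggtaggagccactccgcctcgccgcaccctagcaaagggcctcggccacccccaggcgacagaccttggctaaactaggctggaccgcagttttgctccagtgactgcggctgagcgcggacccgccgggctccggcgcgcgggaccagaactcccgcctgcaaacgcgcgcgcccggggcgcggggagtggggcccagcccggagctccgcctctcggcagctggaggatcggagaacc
Plcg2: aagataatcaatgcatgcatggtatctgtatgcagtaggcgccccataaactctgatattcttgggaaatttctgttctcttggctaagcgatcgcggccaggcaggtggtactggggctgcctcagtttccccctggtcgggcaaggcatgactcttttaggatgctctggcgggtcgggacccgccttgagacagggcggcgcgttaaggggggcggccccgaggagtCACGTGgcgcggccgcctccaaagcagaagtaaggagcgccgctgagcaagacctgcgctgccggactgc
The *Hcst* window held 2 matches to the ETS core, which begin 45 and 16 bases before the start. Of 32851 windows of the same length, 23.8% held at least 1 match to these letters and 4.18% held 2 or more. The *Plcg2* window held 1 E-box, which begins 20 bases before the start, as did 7.15% of all windows. The windows of *Trem2* and *Syk* shown here held neither these letters nor those of the AP-1 site TGACTCA, which 5.20% of all windows held. The other start window of *Syk* (chr13:52596632-52596931) and the window of *Trem1* (chr17:48232489-48232788), which are not shown, each held 1 match to the ETS core. A match is a description of the sequence only, and no match says only that these letters are not in this window.

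The other genes of the pathway were described as lists, by the number that passed the test in each direction and the median log2 fold change. Over all tested genes the median was -0.02 between the veh-treated strains. The list of 12 genes of disease-associated microglia that depend on TREM2 was higher throughout. The remaining lists held fewer genes that rose, and in the list of signalling proteins behind SYK most of the genes that passed were lower.

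**Figure D4:**
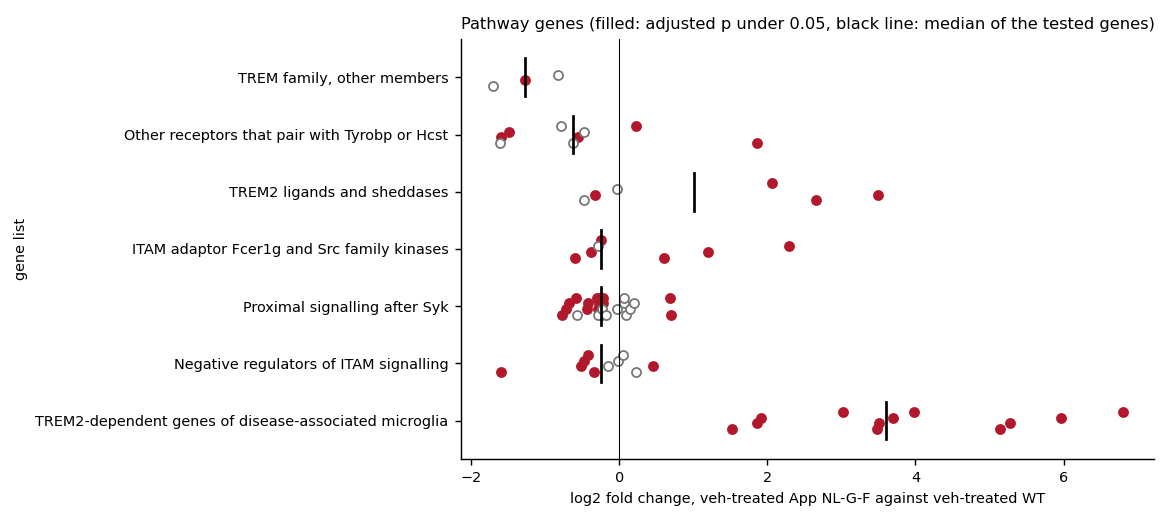
Log2 fold change of each tested gene of 7 pathway lists between veh-treated AppNL-G-F and WT mice, with filled points for an adjusted p under 0.05 and a black line at the list's median. The 12 TREM2-dependent genes lie between 1.52 and 6.80, and the genes behind SYK lie mostly just under 0, with a median of -0.24.

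In that list of TREM2-dependent genes, 12 of 12 rose in veh-treated AppNL-G-F mice with a median of 3.6, beside 20.1% of all tested genes that were higher, and 12 of 12 rose in the treated mice with a median of 3.68, beside 20.8%. *Itgax*, the integrin CD11c, went from 46.3 ± 7.24 CPM in veh-treated WT mice to 1781 ± 178 CPM in veh-treated AppNL-G-F mice (SD, n = 3). *Lpl*, lipoprotein lipase, went from 33.8 ± 4.75 to 1193 ± 27.7 CPM, a 35.3-fold rise. *Clec7a*, the beta-glucan receptor dectin-1, which itself signals through SYK, rose 15.8-fold, and *Axl*, a receptor for apoptotic cells, rose 11.1-fold. The counts of 12 held under each of the alternatives.

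Of the 6 TREM2 ligands and sheddases, 3 rose, 1 fell and 2 did not pass in veh-treated mice, beside 20.1% of all genes that were higher and 16.9% that were lower. *Apoe*, the lipid carrier that binds TREM2, went from 1775 ± 156 to 20020 ± 1250 CPM, an 11.3-fold rise (adjusted p = 2.21e-09 in edgeR's quasi-likelihood test). *Lgals3*, the lectin galectin-3, rose 6.34-fold from 12.7 ± 2.15 to 80.5 ± 5.47 CPM. *Clu*, the lipoprotein clusterin, rose 4.17-fold from 148 ± 36.7 to 616 ± 266 CPM, and the astrocyte markers were higher in the same comparison. With the astrocyte score as a covariate its log2 fold change was 0.23 (adjusted p = 0.745), and 2 genes of the list rose, where 1326 of all 15425 genes were higher. The log2 fold change of *Clu* between the treated strains was 0.00 (adjusted p = 0.997). *Adam10*, a protease that sheds the TREM2 ectodomain, fell from 336 ± 6.77 to 266 ± 5.35 CPM (log2 fold change -0.33, adjusted p = 9.55e-05). In treated mice, 3 rose and 2 fell, beside 20.8% and 21.8% of all genes. *Adam17*, the other sheddase of the list, was higher by 0.17 (adjusted p = 0.0229) but at -0.03 in veh-treated mice (adjusted p = 0.654). In treated mice only 2 genes of the list rose without WT mouse 1 or 3, or without AppNL-G-F mouse 2 or 3. The same number rose with library totals and without a filter on low counts. *Adam17* was chosen for mention after its values were seen.

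Of 9 tested receptors that pair with *Tyrobp* or *Hcst*, 2 rose and 3 fell in veh-treated mice, with a median of -0.62, beside 20.1% and 16.9% of all genes. *Cd300lb*, an activating receptor of myeloid cells, rose 3.63-fold from 3.25 ± 0.571 to 11.9 ± 2.89 CPM. *Clec5a*, another activating receptor, rose 1.17-fold. *Siglech*, a homeostatic microglia gene whose product signals through DAP12, fell from 1166 ± 34.4 to 792 ± 33.9 CPM (log2 fold change -0.56, adjusted p = 0.000105). *Klrk1*, the NKG2D receptor of lymphocytes, fell from 0.900 ± 0.267 to 0.300 ± 0.129 CPM, whereas the 7 T and NK cell markers summed to 1.49 to 1.72 CPM in veh-treated WT mice and to 3.95 to 7.61 CPM in veh-treated AppNL-G-F mice. *Sirpb1a*, added here after its values were seen, had a log2 fold change of -1.49 (adjusted p = 0.0489), but its reads may be shared with close copies. In treated mice 2 rose and 7 fell, with a median of -1.95, beside 20.8% and 21.8% of all genes. When only the AppNL-G-F groups were fitted, 4 of these receptors passed the filter on low counts. The others were tested through their WT levels and could hardly be called other than lower, so these counts and medians depend on the filter. When only genes with at least 10 counts in every library were kept, 3 receptors remained, of which 2 rose and 1 fell in either comparison, with medians of 0.22 (veh) and 0.23 (treated). The calls over all genes under that filter are not given here, so these counts are not set beside a share. Between the veh-treated strains, 1 rose and 1 fell with the astrocyte score, with a median of -1.06, where 1326 of all 15425 genes were higher and 898 lower. Without veh-treated AppNL-G-F mouse 1, 1 rose and 1 fell with a median of -0.57, where 2570 of all 15801 genes were higher and 1879 lower. Without any 1 of the veh-treated WT mice 1 rose and 2 fell, with medians of -0.79 to -0.58, and without veh-treated AppNL-G-F mouse 2, 1 rose and 3 fell, with a median of -0.52. The calls over all genes in these last fits are not given here, so their counts are not set beside a share. The neutrophil and border macrophage markers moved in the same direction in both comparisons. Between the treated strains 4 of 5 monocyte, 5 of 6 B cell and 4 of 4 choroid plexus and ependyma markers were also lower, beside 21.8% of all genes. Between the veh-treated strains these counts were 2, 2 and 0, beside 16.9%. The sums of the B cell markers overlapped, with 418 to 456 CPM in treated WT and 376 to 481 CPM in treated AppNL-G-F mice. The choroid plexus and ependyma markers summed to 3186 to 6650 CPM in treated WT and 637 to 950 CPM in treated AppNL-G-F mice. The part of these cells in these receptors was not tested.

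Of the 3 other TREM family genes that were tested, *Treml1* fell 2.40-fold in veh-treated AppNL-G-F mice, from 3.02 ± 0.215 to 1.26 ± 0.635 CPM (adjusted p = 0.0107), beside 16.9% of all genes that were lower, but its log2 fold change was -0.75 (adjusted p = 0.412) with the astrocyte score as a covariate, where 0 of these 3 genes and 898 of all 15425 were called lower. *Trem3* and *Treml4* had log2 fold changes of -1.71 and -0.83 (adjusted p = 0.0856 and 0.0918). Without veh-treated WT mouse 3, or without veh-treated AppNL-G-F mouse 3, 2 of the 3 genes were called lower. All 3 were called lower with library totals, which also gave more lower calls over all genes. In treated mice all 3 fell, by 1.23, 2.24 and 1.69 on the log2 scale for *Treml1*, *Trem3* and *Treml4*, beside 21.8% of all genes that were lower. When only the AppNL-G-F groups were fitted, 2 of the 3 passed the filter on low counts. The remaining gene was tested through its WT levels, so the count of 3 depends in part on the filter. All 3 were at low levels, and the neutrophil markers were lower in the same libraries.

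The ITAM adaptor *Fcer1g* and the Src family kinases, which phosphorylate ITAM motifs, went in both directions, with 3 genes higher, 3 lower and 1 not passing in veh-treated mice, beside 20.1% and 16.9% of all genes. *Fgr* rose 4.88-fold from 11.4 ± 0.185 to 55.8 ± 5.57 CPM and *Fyn* rose 2.30-fold from 28.2 ± 4.23 to 64.9 ± 0.344 CPM. *Lyn* fell 1.30-fold from 513 ± 6.39 to 395 ± 12.2 CPM. *Fcer1g* was higher by 0.61 (adjusted p = 0.000127) and *Src* lower by -0.24 (adjusted p = 0.0407), both named after their values were seen. With the replicate block 3 genes were higher and 2 lower. The same counts were found without any 1 of the veh-treated WT mice, or without veh-treated AppNL-G-F mouse 2 or 3. In treated mice the counts were again 3 and 3, beside 20.8% of all genes that were higher and 21.8% that were lower.

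Of 25 tested genes of proximal signalling behind SYK, 13 fell, 2 rose and 10 did not pass in veh-treated mice, with a median of -0.24, beside 16.9% of all genes that were lower and 20.1% that were higher. The microglia markers, with a median of -0.50, were lower in the same comparison, and their part in these falls was not tested. *Vav2*, an exchange factor for small GTPases, fell 1.70-fold from 191 ± 17.2 to 112 ± 13.1 CPM. *Nfatc2*, a calcium-dependent transcription factor, fell 1.65-fold, and *Plcg1*, the sister gene of *Plcg2*, fell 1.61-fold from 140 ± 5.75 to 87.3 ± 8.69 CPM. *Pik3r1*, a regulatory subunit of PI3 kinase, fell 1.49-fold from 270 ± 11.1 to 181 ± 4.31 CPM. The 2 that rose, *Lat2* (log2 fold change 0.68) and *Malt1* (0.70), were named after their values were seen. Only 1 gene rose without any 1 of the veh-treated WT mice, or without veh-treated AppNL-G-F mouse 1 or 2. With the replicate block 3 rose. In treated mice 12 fell and 6 rose, beside 21.8% and 20.8% of all genes, and with library totals in place of TMM factors 17 fell and 2 rose, where 7008 of all 15425 genes were lower and 1590 higher. With the astrocyte score as a covariate, 7 fell and 1 rose in veh-treated mice with a median of -0.18, where 898 of all 15425 genes were lower and 1326 higher.

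Of 10 negative regulators, 5 fell and 1 rose in veh-treated mice, with a median of -0.24, beside 16.9% and 20.1% of all genes. The median of the microglia markers was -0.50 in this comparison, and their part in this list was not tested. *Dok3*, an adaptor that dampens ITAM signalling, fell 3.04-fold from 48.6 ± 2.64 to 16.0 ± 1.85 CPM. *Sla*, a Src-like adaptor, fell 1.44-fold, and *Inpp5d*, the lipid phosphatase SHIP1, fell 1.39-fold from 1024 ± 13.9 to 737 ± 37.9 CPM. *Ptpn6*, the tyrosine phosphatase SHP-1, rose 1.37-fold from 335 ± 14.2 to 458 ± 10.5 CPM. With the astrocyte score as a covariate 3 fell, where 898 of all 15425 genes were lower, and the median was -0.06. In treated mice 4 fell and 1 rose, beside 21.8% and 20.8% of all genes. With library totals 7 fell, where 7008 of all 15425 genes were lower.

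Treatment with rh Bri2 BRICHOS R221E gave 0 calls among the 72 tested genes of the 7 lists in AppNL-G-F mice and 0 in WT mice by edgeR's quasi-likelihood test. Over all tested genes the same test called 0.00648% in AppNL-G-F mice and 0% in WT mice. At an unadjusted p under 0.05, 7 of the 72 were found in AppNL-G-F mice, beside 10.8% of all genes, and 20 of the 72 in WT mice, beside 11.4% of all genes. In WT mice, 0 border macrophage, monocyte or choroid plexus and ependyma markers were called for treatment, but their medians were 0.47, 1.16 and 1.19. The border macrophage markers summed to 390 to 460 CPM after veh and 516 to 630 CPM after treatment. The medians of neutrophil, oligodendrocyte, endothelial and microglia markers were -0.36, -0.30, -0.12 and -0.10. The part of these cells was not tested. DESeq2's Wald test with all libraries called 0 in AppNL-G-F mice, where it called 5 of 13900 genes higher and 120 lower. In WT mice it called 2, namely *Apoe* (log2 fold change 0.38, adjusted p = 0.0114) and *Fgr* (0.57, adjusted p = 0.00934), where 68 of 15597 genes were higher and 17 lower. With only the compared groups it called *Apoe* in WT mice (0.38, adjusted p = 0.00195), where 115 of 15069 genes were higher and 20 lower. For the difference of the treatment effects, edgeR called 0 of the 72, beside 0.00648% of all genes. At an unadjusted p under 0.05, 14 were found, beside 14.8% of all genes. DESeq2 with all libraries called *Cd9*, a tetraspanin among the TREM2-dependent genes (0.31, adjusted p = 0.0173), and edgeR without a filter on low counts called *Clu* (-2.04, adjusted p = 0.0478). In these fits 27 of 16162 and 1 of 29173 genes were higher, and 213 and 106 were lower. The 12 TREM2-dependent genes had a median of 0.14 in treated against veh-treated AppNL-G-F mice, beside 0.01 over all genes.

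Genes whose log2 CPM followed that of a member most closely over the 12 libraries were also listed, as a description. The 12 libraries fall into both strains, so a high correlation coefficient mostly repeats the strain difference, and a large number of genes share it. For *Trem2* they were *Ctsz*, *Grn* and *Hexa*, genes of lysosomal proteins (each r = 0.999). For *Tyrobp* they were *Timp2*, *Ctsz* and *Trem2*, and for *Hcst* they were *Tpd52*, *Rap2b* and *Rab7b*. *Treml2* was closest to *Gapdh* (r = 0.995), *Os9* and *Lgals3bp*. For *Syk* they were *Fchsd2*, *Sla* and *Il7r* (r = 0.993, 0.992 and 0.991), and for *Plcg2* *N4bp2l1*, *Arap1* and *Cds1* (0.964, 0.957 and 0.947). For *Trem1*, *Dhrs9* was among them (0.944).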

How the data were processed

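RNA of CD11b-positive cortical cells from 12 mice was sequenced after poly(A) selection with a stranded Illumina kit. Per the labels, FastQC 0.11.8, STAR 2.6.1d, featureCounts 1.5.1 and DESeq2 were used on GRCm38, and the authors deposited raw counts per gene, without normalization. Per-sample columns left unused numbered 0. Ensembl identifiers were matched to symbols for 55227 of 55487 genes.

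The 7 genes and the lists were chosen with earlier results of these data known. Named were all 7 genes, up to 4 genes per pathway list with the lowest adjusted p between the veh-treated strains (also any called for treatment), and the 3 genes closest to each member by Pearson correlation. A few genes taken by these rules are not reported here. Genes were kept by filterByExpr (minimum count 10). The deposited counts were tested with edgeR 4.0.16 in R 4.3.3 (TMM factors, quasi-likelihood, 1 mean per group, all 12 libraries). The p-values were adjusted for 15425 genes by the Benjamini-Hochberg method. Alternatives were DESeq2 1.42.0 (its Wald test or size factors), library totals, other filters on low counts, only the compared groups, an astrocyte marker score as covariate, a replicate block and the omission of each library. Python 3.11.15, pandas 2.3.3 and matplotlib 3.10.9 were used for tables and figures. Each library is 1 mouse. No pair of libraries in a group agreed within counting noise. The fits were tested on simulated counts. An exact test of 3 against 3 mice cannot give p under 0.1.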

Additional observations from a re-analysis of the deposited data

How the results depend on the processing

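Over 9 alternatives and the omission of each library, the directions of the 6 genes called between the veh-treated strains, and of the 6 called between the treated strains, did not change. Of the 553 values recomputed, 522 kept direction and side of the threshold, 7 lost and 4 gained a call and 20 changed sign. The number of genes called was 5 to 7 between the veh-treated strains, 6 or 7 between the treated strains, and 0 in the treatment comparisons. The log2 ratio of *Trem2* to *Tyrobp* between the strains was -0.113 to -0.084 when each library was left out. With library totals in place of TMM factors the median of all genes moved to -0.21 (veh) and -0.31 (treated), the calls over all genes were 2004 higher and 5198 lower (against 3099 and 2611) and 1590 higher and 7008 lower (against 3202 and 3358), and *Plcg2* was called in treated mice (-0.39). With the astrocyte score, 1326 genes were higher and 898 lower between the veh-treated strains. For treatment in WT mice, edgeR called 0 genes and DESeq2 with all libraries 68 higher and 17 lower. In AppNL-G-F mice DESeq2 with all libraries called 5 genes higher and 120 lower for treatment (27 and 213 for the difference of the effects), with only the compared groups 1 and 70, edgeR without the filter called 25 lower (1 and 106), and edgeR without veh-treated AppNL-G-F mouse 3 called 2 higher and 160 lower (2 and 86, or 1 and 61 without veh-treated WT mouse 3), where the test used in the text called 0 and 1, and the cause was not tested.

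The changes of sign fell on values near 0 that were not called. For treatment in AppNL-G-F mice, *Syk* was 0.01 with DESeq2's size factors and in DESeq2's Wald test, *Plcg2* was -0.04 with the astrocyte score, and the omission of a library gave *Syk* -0.03 to 0.02 and *Trem1* -0.75 to 0.12. For treatment in WT mice, *Treml2* was 0.02 with library totals and 0.01 with at least 10 counts in every library, *Plcg2* was 0.00 with library totals and with the astrocyte score, and the omission of a library gave *Tyrobp* -0.12 to 0.02, *Hcst* -0.07 to 0.11, *Treml2* -0.07 to 0.10 and *Plcg2* -0.06 to 0.00. For the difference of the effects, *Hcst* was 0.00 with library totals and -0.08 with the astrocyte score, *Syk* was -0.01 with library totals and *Plcg2* was -0.04 with the astrocyte score.

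With the replicate number as a block, 6, 6, 0, 0 and 0 of the 7 genes were called (veh-treated strains, treated strains, treatment in AppNL-G-F mice, in WT mice, and the difference), so no such call changed, and the calls over all genes between the veh-treated strains were 3209 higher and 2782 lower. Between these strains the block gave 2 lower genes, not 3, among the receptors that pair with *Tyrobp* or *Hcst*. It also gave 2 lower, not 3, for *Fcer1g* with the Src family kinases, and 3 higher, not 2, behind SYK. Between the treated strains it gave 8 higher, not 6, behind SYK, and 3 lower, not 4, among the negative regulators. The block changed the ratio of *Trem2* to *Tyrobp* (-0.098), whose p went from 0.02 to 0.0625. Equally numbered libraries had correlations of their deviations of 0.0564, 0.141 and 0.174 between the veh-treated strains, -0.0148 to 0.227 in the other 3 comparisons of 2 groups and -0.114 to 0.264 over all pairs of the 4 groups, so the numbers were not taken to pair the mice. Low counts limit *Trem1* (31 to 301 counts) and *Hcst* (56 to 263 counts).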
